A study of Mus musculus with 12 samples.

Results

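The cytosolic ribosomal protein genes were examined in tumourspheres treated with MET and FGFR inhibitors. Members were the genes of the deposited count table whose symbol follows the pattern of the Rps and Rpl families, without pseudogenes or Rps6 kinases, and that held at least 120 counts summed over the 12 libraries. The pattern matched 89 of the 55573 genes, 84 of these reached the minimum, and 4 of the 84 were annotated as processed pseudogenes, which left 80 members. All 80 were annotated as protein coding and all 80 passed the low-count filter of the test, which kept 13836 genes. The 32 small subunit genes (Rps and Rpsa) and 48 large subunit genes (Rpl, with the stalk genes Rplp0, Rplp1 and Rplp2) lie on 19 chromosomes. Rpl3l, Rpl39l and Rpl10l, paralogs known from muscle or testis, held 21, 2 and 1 counts over all libraries and were left out by the count minimum.

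The 3 cell lines, A1005, A1129 and A1471, were each derived from a spindloid mammary tumour of an MMTV-Met mt;Trp53fl/+;Cre mouse, in which the mammary tumour virus promoter drives a mutant Met and Cre removes a floxed Trp53 allele. Every group carries this genotype, so no group without the transgene was compared. Tumourspheres, which are cells grown in suspension under conditions that favour tumour-initiating cells, were treated for 24 h with the vehicle DMSO, the MET inhibitor Crizotinib, the FGFR inhibitor PD173074, or both inhibitors (the combination), with 1 µM of each inhibitor, and RNA was sequenced from 1 library per line and treatment. The comparisons ask how the RNA of the ribosomal protein genes differed when MET, FGFR or both were inhibited, with n = 3 cell lines per treatment.

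Ribosomal proteins assemble with ribosomal RNA into the small and the large subunit, and their messages are among the most abundant of growing cells. Most of these messages begin with a C followed by a run of pyrimidines, the 5′ terminal oligopyrimidine (TOP) motif, through which mTOR and LARP1 set how fully they are translated. Growth factor receptors such as MET and FGFR1 signal to mTOR and to Myc, which acts on the transcription of many of these genes. Translation was not measured here, and a library of bulk RNA cannot tell fewer cells of a type from less RNA per cell.

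The start sites of members from both ends of the order of change under the combination are shown because the TOP run is what these messages are known for. Sequences are from RefSeq on GRCm38.p6, 35 bases before to 20 bases after the annotated start, on the gene's strand, with the longest run of C and T within 25 bases of the start in capitals. The first 5 were among the members with lower counts after the combination and the last 2 were among those with the highest change.
Rpl7a, chr2:26910772-26910826, plus strand: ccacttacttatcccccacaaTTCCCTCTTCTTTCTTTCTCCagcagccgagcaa
Rps2, chr17:24720028-24720082, plus strand: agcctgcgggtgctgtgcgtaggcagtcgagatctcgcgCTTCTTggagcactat
Rpl18, chr7:45718036-45718090, plus strand: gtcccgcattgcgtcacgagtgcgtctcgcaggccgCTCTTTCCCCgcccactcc
Rpl14, chr9:120571482-120571536, plus strand: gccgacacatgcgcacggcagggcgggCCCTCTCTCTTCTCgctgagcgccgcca
Rpl7l1, chr17:46782637-46782691, minus strand: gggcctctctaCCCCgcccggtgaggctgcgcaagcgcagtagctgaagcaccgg
Rps27, chr3:90213629-90213683, minus strand: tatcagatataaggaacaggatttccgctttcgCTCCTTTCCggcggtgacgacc
Rps28, chr17:33824543-33824597, minus strand: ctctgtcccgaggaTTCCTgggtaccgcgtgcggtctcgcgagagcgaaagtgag

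The runs were 21 bases long in Rpl7a, 14 in Rpl14, 10 in Rpl18, 9 in Rps27, 6 in Rps2, 5 in Rps28 and 4 in Rpl7l1. Among these chosen members, runs of at least 8 bases and shorter runs were found at both ends of the order. Only Rps27 and Rps28 stand for the upper end, and the 3 longest runs were at the lower end. Run length was not set against the change over all members. Of the 60 members with a matching RefSeq promoter, 32 (53.3%) had a run of at least 8 pyrimidines in that window, compared with 22.3% of 27025 genes. The sequence CCGGAAG, a core bound by ETS family factors, was found on either strand in the 250 bases before the start of 18 of the 60 (30.0%) and of 7.83% of all genes. CACGTG, the E-box that Myc binds, was found in 5 (8.33%) against 6.86%, CCAAT in 18 (30.0%) against 37.5%, TATAAA in 4 (6.67%) against 14.3%, and GATGGCG, the core of the YY1 motif, in 3 (5.0%) against 2.52%. These are matches of letters around annotated starts, which can differ from the starts used in these cells.

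Total counts lay between 13031492 and 17750476 per library. The tumourspheres had the mesenchymal markers Vim (1903 to 3204 CPM, counts per 1000000 counts after scaling), Zeb1 (52.8 to 102.0), Zeb2 (21.8 to 86.8), Twist1 (44.5 to 132) and Fn1 (377 to 5093), while the sixth marker listed, Cdh2, was at 0 to 0.453 CPM. The epithelial markers Epcam, Cdh1 and Krt14 reached at most 2.08, 0.564 and 0.611 CPM, Krt8 was at 1.12 to 34.0 and Krt18 at 4.0 to 49.4, and Krt5 had no count in any library, for which 3 counts would be 0.167 to 0.234 CPM. The leukocyte marker Lyz2 had no count either, and the leukocyte marker Cd3e and the endothelial markers Pecam1 and Cdh5 reached at most 0.111, 0.50 and 0.342 CPM. The leukocyte marker Ptprc was at 13.6 to 20.5 CPM in the 4 A1005 libraries and at most 0.138 in the other 8. The share of counts on mitochondrially encoded genes was 1.21% to 1.29% with DMSO, 1.44% to 1.48% with Crizotinib, 1.53% to 1.66% with PD173074 and 1.93% to 2.52% with the combination. The part of this share in the results below was not tested, beyond the members' share given below without mitochondrially encoded genes. The part of Ptprc was not tested.

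The 80 members took between 4.13% and 6.47% of all counts, and in every library at least 70 of them were among the 1000 genes with the most counts, mitochondrially encoded genes left out. With DMSO, A1005 had a share of 5.36%, A1129 of 5.69% and A1471 of 5.71% (5.59% ± 0.195, SD, n = 3). With Crizotinib it was 5.15%, 5.50% and 5.53% (5.39% ± 0.211), and with PD173074 it was 4.73%, 4.89% and 5.40% (5.01% ± 0.351). Both inhibitors alone thus gave a lower share than DMSO within each line, with differences of -0.213, -0.191 and -0.180 percentage points for Crizotinib and of -0.633, -0.798 and -0.308 for PD173074, lines in the order above.

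With the combination the 3 lines moved apart. A1005 was at 5.15%, A1129 at 4.13% and A1471 at 6.47% (5.25% ± 1.17), which differ from the DMSO library of the same line by -0.210, -1.55 and 0.764 percentage points. The A1129 library was the lowest of all 12 and the A1471 library the highest. The share of counts on mitochondrially encoded genes differed from DMSO by 1.05, 1.31 and 0.637 percentage points in the same lines. With these genes left out of the total counts, the members' share differed by -0.157, -1.52 and 0.816 percentage points. Any other part of the mitochondrial share in these differences was not tested. For the share of all counts, the mean difference within lines was -0.334 ± 1.16 percentage points for the combination, -0.579 ± 0.250 for PD173074 and -0.195 ± 0.0170 for Crizotinib (SD of the differences, n = 3). This mean difference was larger than its spread for each inhibitor alone and not for the combination. An exact two-sided permutation test of 3 against 3 cannot give a p below 0.1, and one that exchanges the 2 libraries of a line cannot give one below 0.25, so the share could pass neither. Without pairing the exact p was 0.7 for the combination, 0.2 for PD173074 and 0.3 for Crizotinib against DMSO (adjusted over 5 comparisons, 0.8, 0.75 and 0.75), and 0.8 for the combination against either inhibitor alone (adjusted, 0.8). With the exchange within lines, a test added after the data were seen, the exact p was 0.75, 0.25 and 0.25 against DMSO (adjusted, 0.938, 0.625 and 0.625). The 95% Wilson intervals of single shares were at most 0.0267 percentage points wide and cover counting error only.

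**Figure D1:**
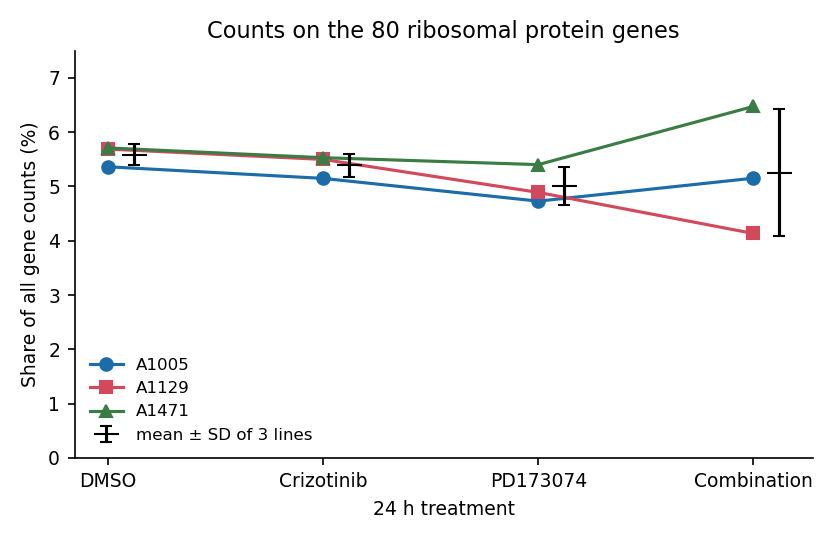
Share of all gene counts (%) on the 80 ribosomal protein genes in each library by 24 h treatment, with 1 colour and marker per cell line, lines joining the libraries of a cell line, and the mean ± SD of the 3 lines in black. The 3 lines lie between 5.36% and 5.71% with DMSO and spread from 4.13% (A1129) to 6.47% (A1471) with the combination.

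Both subunits moved together. The small subunit genes took 0.640 to 0.739 times the counts of the large subunit genes with DMSO and 0.642 to 0.726 times with the combination. In each line this ratio stayed close to that line's own DMSO value (A1005, 0.654 and 0.652, A1129, 0.739 and 0.726, A1471, 0.640 and 0.642). The median log2 fold change of the combination against DMSO was -0.16 over the small subunit genes and -0.15 over the large subunit genes.

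Gene by gene, few members passed the test after the combination. In edgeR's quasi-likelihood test without pairing, 2 of the 80 members (2.50%) passed an adjusted p of 0.05 for the combination against DMSO, both lower, compared with 14.4% of all genes tested. With the cell line as a block, 11 members (13.8%) passed, compared with 54.8% of all genes, of which 10 were lower (26.2% of all genes) and 1 was higher (28.6% of all genes). The median log2 fold change was -0.15 over the members and 0.02 over all genes tested. The middle 50% of the members lay between -0.23 and -0.05, and that of all genes between -0.46 and 0.57. Without A1129 the members' median was 0.02. The blocked count changed as well, to 5 members without A1005, 6 without A1129 and 13 without A1471. Those fits hold fewer libraries, and the share of all genes called in them is not given here. Of the 11 members called with all lines, 4 stayed called without A1005, 4 without A1129 and 10 without A1471. Called lower were 4, 3 and 12 members in these fits, and called higher were 1, 3 and 1. How far the calls rested on a single line was not tested.

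The per-line differences show the same spread. As medians over the 80 members, A1005 differed by -0.07, A1129 by -0.54 and A1471 by 0.11 in log2 CPM between the combination and DMSO. In A1129, 79 of the 80 members were lower, and in A1471, 62 of the 80 were higher. A member was lower in all 3 lines in 17 cases (21.3%, against 31.9% of all genes) and higher in all 3 in 1 case, against 34.0% of all genes. The 3 combination libraries lay below the 3 DMSO libraries for 5 members, among them Rpl7l1, Rps2, Rpl18 and Rps27l, as they did for 16.1% of all genes, and above them for none, against 13.8% of all genes.

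**Figure D2:**
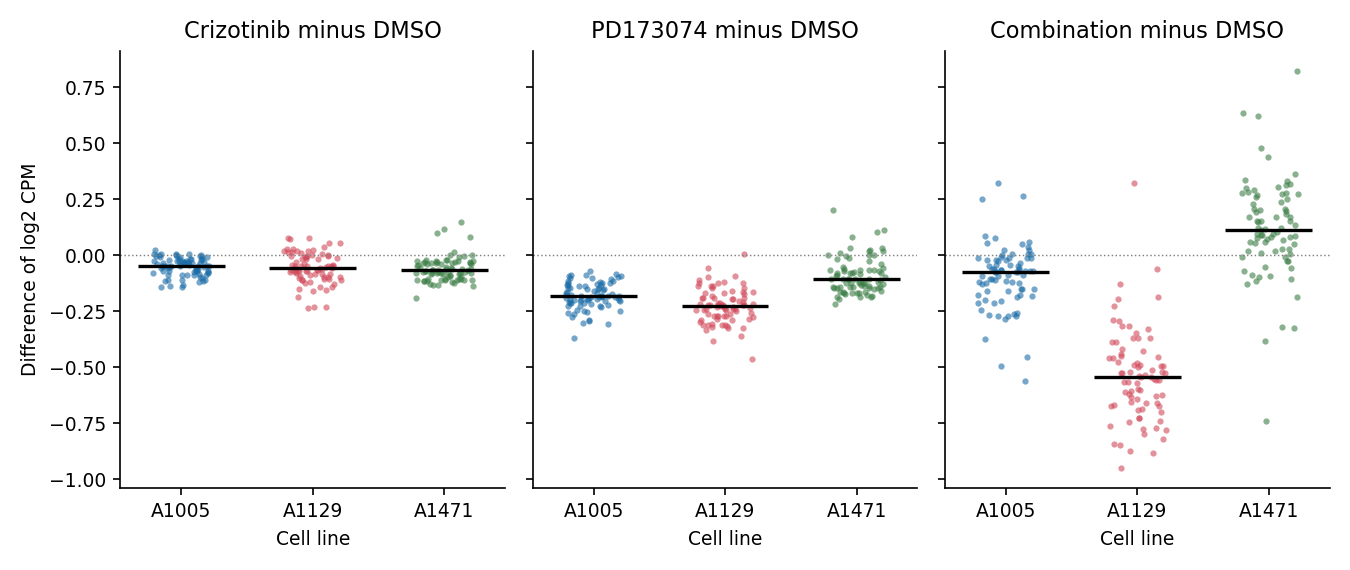
Difference of log2 CPM from the DMSO library of the same cell line for each of the 80 members (points) by inhibitor and line, with the median as a black bar. The medians lie between -0.07 and -0.05 with Crizotinib and between -0.22 and -0.11 with PD173074, and for the combination at -0.07 (A1005), -0.54 (A1129) and 0.11 (A1471).

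Rpl7l1, a paralog of Rpl7 that is known from precursors of the large subunit, had the largest decrease. It lies on chromosome 17 (46773907 to 46782672, minus strand, mm10). Its level was 197, 189 and 234 CPM with DMSO in A1005, A1129 and A1471, and 152, 102 and 140 CPM with the combination. It was at 186, 169 and 217 CPM with Crizotinib and at 180, 189 and 213 CPM with PD173074. The 3 combination libraries were the lowest of the 12. The log2 fold change of the combination against DMSO was -0.65 ± 0.18 (SE, edgeR adjusted p = 0.0359), and -0.66 ± 0.12 with the block (adjusted p = 0.000921). It was also lower with the block against Crizotinib alone (-0.54, edgeR adjusted p = 0.00291) and against PD173074 alone (-0.57, adjusted p = 0.00382).

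Rps2, a small subunit protein near the channel by which mRNA enters, was the other member that passed without pairing. It lies on chromosome 17 (24718116 to 24721929, plus strand). Its level fell from 1018, 1005 and 925 CPM with DMSO to 689, 607 and 814 CPM with the combination, again without overlap. With Crizotinib it was at 984, 901 and 879 CPM and with PD173074 at 850, 910 and 813 CPM, so the PD173074 and combination libraries of A1471 were alike. The log2 fold change of the combination was -0.48 ± 0.14 (edgeR adjusted p = 0.0446), and -0.48 ± 0.12 with the block (adjusted p = 0.00662). It passed the blocked test in 1 of the 3 fits without a line. An annotated processed copy, Rps2-ps10, held 27451 counts over the 12 libraries, the most of any named ribosomal protein pseudogene, and reads shared between the copies cannot be told apart here.

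Rpl8 and Rpl7a, both of the large subunit, were lower in every line, but only the blocked fit called them. Rpl8, which lies next to the site of peptide bond formation (chromosome 15, 76904078 to 76906314, plus strand), was at 2077, 1169 and 1644 CPM with DMSO and at 1474, 662 and 1316 CPM with the combination. The fitted change was -0.50 ± 0.36 on the log2 scale (edgeR adjusted p = 0.409), or -0.54 ± 0.12 with the block (adjusted p = 0.00292). Rpl7a (chromosome 2, 26910764 to 26913318, plus strand) went from 1049, 1000 and 1303 CPM to 765, 590 and 1039 CPM. For this gene edgeR gave -0.49 ± 0.22 (adjusted p = 0.181), or -0.51 ± 0.11 with the block (adjusted p = 0.00310). For both genes the highest combination library was above the lowest DMSO library, while each line on its own was lower with the combination.

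Rpl18, Rpl14, Rpl27 and Rpl6, all of the large subunit, were also called lower with the block, with blocked log2 fold changes of -0.38 to -0.34 and edgeR adjusted p of 0.0328 to 0.0396. In each of them the difference was largest in A1129. Rpl18 was at 530.5, 622 and 526 CPM with DMSO and at 440.0, 345 and 506 CPM with the combination, a difference on the log2 scale of -0.27, -0.85 and -0.05. Rpl14 was at 724, 853 and 582 CPM with DMSO and at 625, 515 and 532 CPM with the combination. Without 1 line, Rpl18, Rpl27 and Rpl6 passed the blocked test in 1 of the 3 fits each and Rpl14 in 0. None of these 4 passed when libraries were scaled by total counts or to the total of the members.

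Rps27 and Rps28, small proteins of the small subunit, were among the members with the highest change. Rps27 was at 452, 425 and 454 CPM with DMSO and at 544, 389 and 706 CPM with the combination. Rps28, which lies near the channel by which mRNA leaves, was at 431, 348 and 386 CPM with DMSO and at 513, 333 and 595 CPM with the combination. Both were higher in A1005 and A1471 and slightly lower in A1129. Neither passed against DMSO with the block (Rps27, 0.27 ± 0.14, edgeR adjusted p = 0.130, and Rps28, 0.28 ± 0.13, adjusted p = 0.0920). Without A1129 both were called higher with the block (0.46 and 0.45, edgeR adjusted p = 0.0293 and 0.0339), and without A1471 the values were 0.09 and 0.11. Against PD173074, Rps28 was higher with the block (0.40, edgeR adjusted p = 0.0353). When libraries were scaled to the total of the 80 members, Rps27 and Rps28 were higher with the block, and Rpl7l1, Rpl8, Rpl7a and Rps2 stayed lower. That scaling moved the median log2 fold change of all genes with the block from 0.03 to 0.20, so it compares members with one another.

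The other members with the highest change were Rpl37a, Rpl13a and Rps9, with log2 fold changes of 0.10, 0.07 and 0.06, none of which passed with the block (edgeR adjusted p of 0.615 to 0.737). Rpl22l1 was among the 6 with the lowest change (-0.39) and did not pass either (with the block, adjusted p = 0.0572).

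The level of the members as a whole differed between lines, while their order of change was similar, as it was over all genes. Across the 80 genes, the differences of 2 lines correlated with Pearson's r of 0.69 to 0.77 (Spearman's rho of 0.58 to 0.76) for the combination against DMSO, beside r of 0.68 to 0.76 over all genes tested. This is a description across genes, which share the 2 libraries of each line and are not independent. For PD173074 r was -0.07 to 0.46, beside 0.43 to 0.51 over all genes, and for Crizotinib -0.06 to 0.31, beside 0.13 to 0.15. Set against the median of the 80 in its own line, Rps28 was higher by 0.32, 0.48 and 0.51 in A1005, A1129 and A1471, and Rps27 by 0.34, 0.41 and 0.52. On the same scale Rpl8 was at -0.42, -0.28 and -0.44, Rpl7a at -0.38, -0.22 and -0.44, and Rpl27 at -0.19, -0.20 and -0.20. In all, 22 members were above their line's median in all 3 lines and 23 were below it in all 3. The median by its definition splits the members evenly in each line, and the same count over all genes is not given here. Across the 80 genes the blocked log2 fold change had little relation to transcript length (rho = -0.04), transcript GC content (-0.15) or level with DMSO (0.05).

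**Figure D3:**
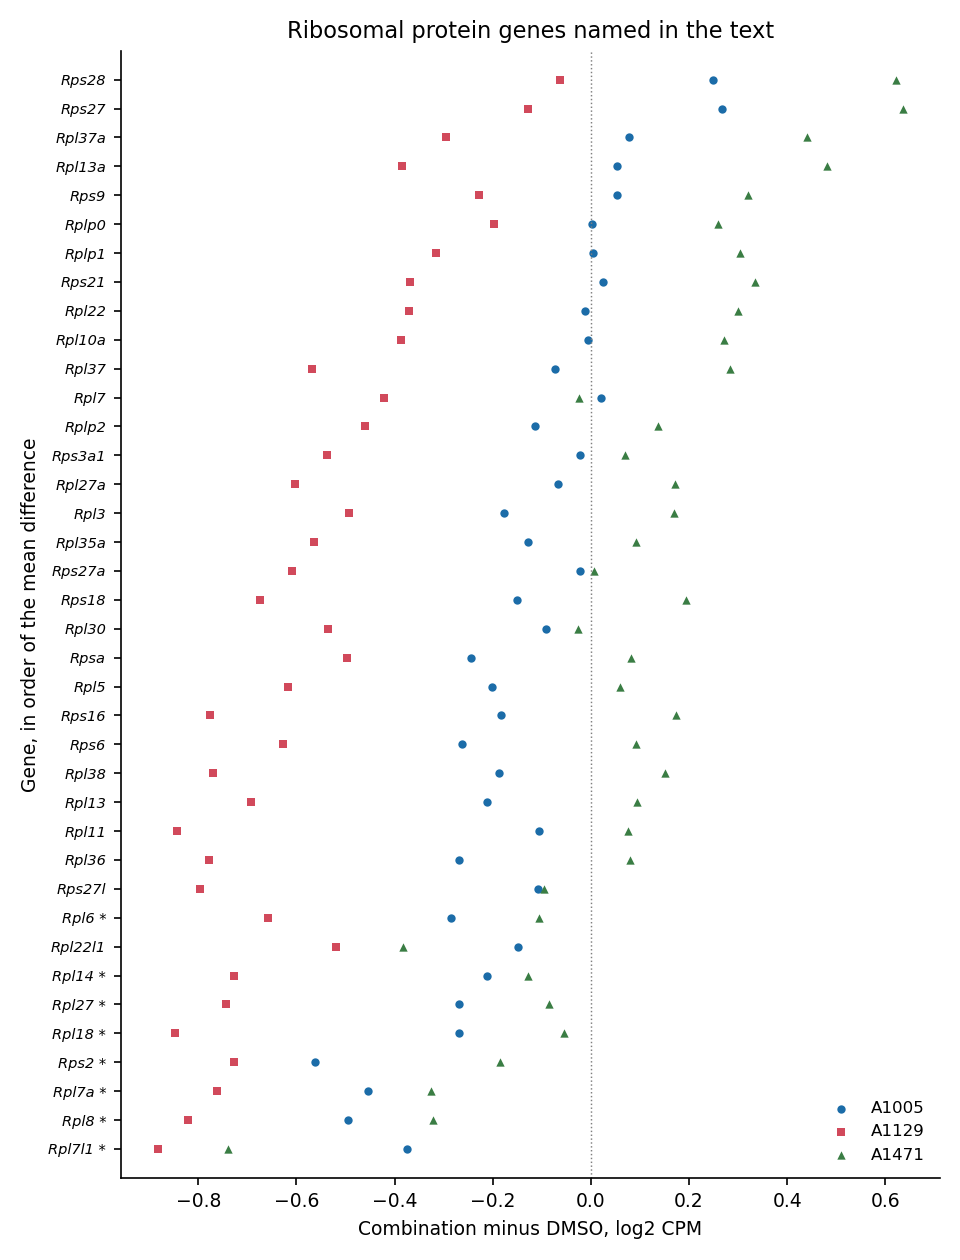
Combination minus DMSO on the log2 CPM scale for the members named in the text, ordered by the mean of the 3 lines from bottom to top, with a marker per cell line and an asterisk for genes called by edgeR with the cell line as a block. A1129 lies to the left of both other lines for most genes, Rpl7l1 is at the bottom, and Rps27 and Rps28 are at the top.

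The members on which ribosomal stress signalling and S6 kinase act showed the pattern of the family. Rpl5 and Rpl11, which with the 5S ribosomal RNA can bind MDM2, had log2 fold changes of -0.20 ± 0.29 and -0.20 ± 0.30. Rpl11 was at 619, 456 and 556 CPM with DMSO and at 576, 254 and 586 CPM with the combination, so only A1129 was much lower. Rps6, the substrate of S6 kinase, was at 432, 338 and 422 CPM with DMSO and at 360, 219 and 450.0 CPM with the combination (-0.21 ± 0.25). None of these 3 passed, with edgeR adjusted p of 0.639 to 0.721 without pairing and 0.134 to 0.184 with the block.

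Rpl13, Rpsa, the laminin receptor precursor, and Rps27a, made as a fusion with ubiquitin, did not pass either. Rpl13 was at 706, 1036 and 981 CPM with DMSO and at 609, 641 and 1048 CPM with the combination. Rpsa was at 1997, 2330 and 1570 CPM with DMSO and at 1687, 1651 and 1663 CPM with the combination, so that the 3 lines were closer to each other after the combination. The log2 fold changes of Rpl13, Rpsa and Rps27a were -0.25, -0.24 and -0.18, with blocked edgeR adjusted p of 0.151, 0.173 and 0.223.

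The stalk genes, whose proteins recruit elongation factors, did not pass in any comparison. Rplp0, the member with the most counts (435352 over all libraries), was at 2118, 2542 and 2810 CPM with DMSO and at 2122, 2217 and 3364 CPM with the combination. The log2 fold changes were 0.04 ± 0.22 for Rplp0, -0.00 ± 0.14 for Rplp1 and -0.16 ± 0.18 for Rplp2 (edgeR adjusted p of 0.631 to 0.999, and 0.355 to 0.985 with the block). In A1129 all 3 were lower, in A1471 all 3 were higher.

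The paralogs were compared with their core partners as CPM per kilobase of transcript. Rpl7l1 was at 7.47%, 7.65% and 7.76% of Rpl7 with DMSO and at 5.68%, 5.55% and 4.73% with the combination, lines in the same order as before. Rps27l, a paralog of Rps27 known as a p53 target, was at 19.7%, 20.8% and 20.7% of Rps27 with DMSO and at 15.2%, 13.1% and 12.5% with the combination. In both pairs the 3 combination libraries were the lowest of the 12, and in neither did an inhibitor alone separate from DMSO.

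The log2 ratio of Rpl7l1 to Rpl7 differed by -0.52 and that of Rps27l to Rps27 by -0.59 between the combination and DMSO. The exact two-sided permutation p was 0.1 for each, the smallest that 3 against 3 allows (adjusted over 15 ratios, 0.25). Rps27l itself was at 129, 128 and 136 CPM with DMSO and at 120, 73.6 and 127 CPM with the combination. It did not pass (-0.29 ± 0.19, edgeR adjusted p = 0.361, and 0.0647 with the block).

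Rpl22l1, which is known to be repressed by Rpl22, set the lines apart more than the treatments. It was at 62.7%, 207% and 107% of Rpl22 per kilobase with DMSO and at 57.1%, 187% and 66.3% with the combination, again for A1005, A1129 and A1471. Its own level was 76.4, 170 and 111 CPM with DMSO and 68.9, 119 and 84.9 CPM with the combination. The ratio to Rpl22 differed by -0.14, -0.15 and -0.68 on the log2 scale in the 3 lines (exact permutation p = 0.6, adjusted 1).

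**Figure D4:**
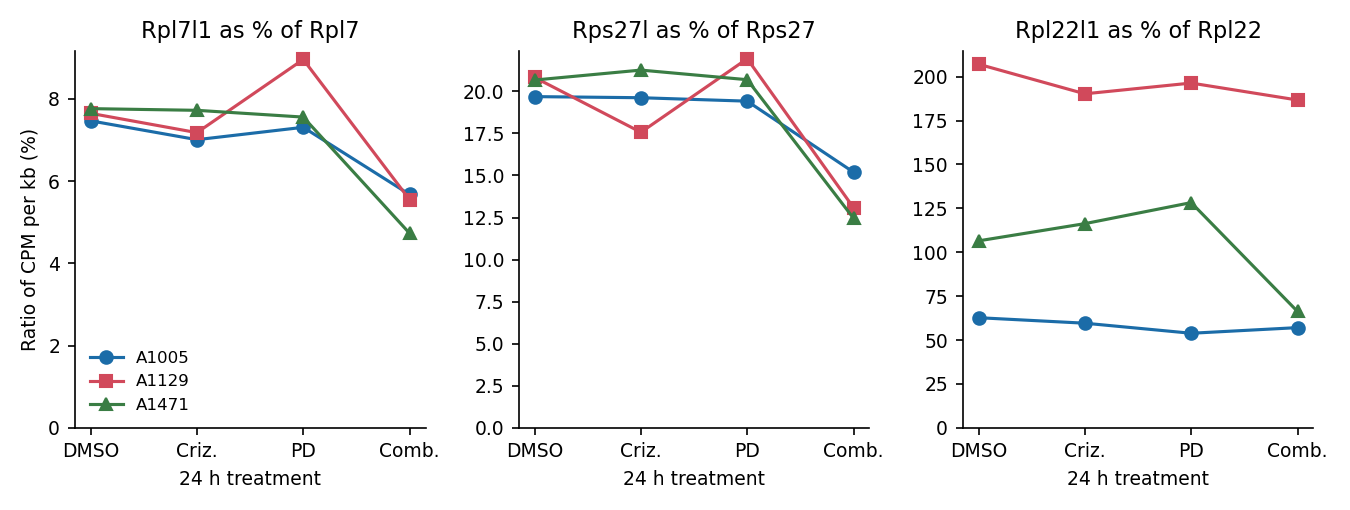
Level of each paralog as a percentage of its core partner, both in CPM per kilobase of transcript, by 24 h treatment (Criz., Crizotinib; PD, PD173074; Comb., combination), with lines joining the libraries of a cell line. Rpl7l1 and Rps27l lie lowest with the combination in all 3 lines, at 4.73% to 5.68% and 12.5% to 15.2%, and Rpl22l1 ranges from 62.7% in A1005 to 207% in A1129 with DMSO.

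With PD173074 alone no member was called, but the members were lower by a small amount almost throughout. Neither test called a member against DMSO (0% of all genes without pairing and 2.14% with the block), and no member had an unadjusted p under 0.05 in either. DESeq2 and limma-voom also called 0. The lowest edgeR adjusted p of a member with the block was 0.345, that of Rps18 (-0.31 ± 0.15). The log2 fold change was below 0 for all 80 members, from -0.30 (Rps18) to -0.04, with a median of -0.17 beside 0.00 over all genes tested. A member was lower in all 3 lines in 66 of 80 cases (82.5%), as were 23.2% of all genes. The members move together, so these are not independent counts.

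By line, 80 members were lower with PD173074 in A1005, 79 in A1129 and 67 in A1471, with medians of -0.18, -0.22 and -0.11. The 3 PD173074 libraries lay below the 3 DMSO libraries for 9 members, among them Rpl10a, Rpl18, Rpl27a, Rpl36, Rpl38, Rps16, Rps2 and Rps9, against 3.07% of all genes, and above them for none, against 3.35%. Rps18 was at 521, 448 and 502 CPM with DMSO and at 421, 325 and 450.0 CPM with PD173074, and Rpl35a at 212, 182 and 150.3 CPM and at 183, 142 and 136 CPM. Each line was lower, and the groups overlapped for both genes.

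Crizotinib alone called no member in either test, as it called 0% of all genes in both, and no member had an unadjusted p under 0.05. DESeq2 and limma-voom called 0 members as well. Of all genes, 18 without pairing and 258 with the block had an unadjusted p under 0.05. The members' log2 fold changes lay between -0.15 and 0.03 with a median of -0.05, and 53 of 80 (66.3%) were lower in all 3 lines, against 17.7% of all genes. The median differences were -0.05, -0.06 and -0.07 in A1005, A1129 and A1471.

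The combination was also set against each inhibitor alone. Against Crizotinib the unpaired test called no member (13.2% of all genes; 2 members had an unadjusted p under 0.05, DESeq2 called 2 and limma-voom called 0) and the blocked test 5 (53.4% of all genes), among them Rpl7l1, Rpl8, Rpl7a and Rps2, which were lower. Against PD173074 it called none (4.77% of all genes; 1 member had an unadjusted p under 0.05, and DESeq2 and limma-voom called 0) and with the block 5 (39.8% of all genes), among them Rpl7l1, Rpl7a and Rpl8, which were lower, and Rps28, which was higher. The medians over the members were -0.10 and 0.02, and their direction rested on single lines. Against Crizotinib the median was 0.09 without A1129 and -0.24 without A1471, and against PD173074 it was -0.01 without A1005, 0.16 without A1129 and -0.10 without A1471. By line, the median difference was -0.03, -0.50 and 0.18 against Crizotinib and 0.10, -0.31 and 0.22 against PD173074, so that A1129 was again below 0 and A1471 above it. These comparisons share the combination libraries with the comparison against DMSO. The blocked counts against Crizotinib and PD173074 were 3 and 2 without A1005, and 3 against PD173074 without A1129, in fits with fewer libraries.

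The lines also differed in the members they expressed, whatever the treatment. The 4 libraries of A1471 lay above the other 8 for 18 members (22.5%, against 4.34% of all genes), and the 4 libraries of A1129 lay below the other 8 for 14 (17.5%, against 5.63%). A1005 lay above for 3 (against 12.3%) and below for 5 (against 9.81%). Rpl37 had medians of 671, 248 and 446 CPM in A1005, A1129 and A1471, and Rpl30 of 525, 228 and 321 CPM. Rps21 went the other way, with 526, 705 and 319 CPM. These differences between lines were not tested.

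The largest difference between lines was that of Rps3a1, the gene of a small subunit protein. In A1005, the line with its lowest level, a pseudogene held many counts that it did not hold in the other lines. Rps3a1 (chromosome 3, 86137940 to 86142702, minus strand) had medians of 476, 1117 and 1610 CPM in A1005, A1129 and A1471. Rps3a3, an annotated processed pseudogene (chromosome 13, 108670603 to 108671397, plus strand), held 5301 to 7013 counts in the A1005 libraries and 54 to 121 in the other 8. Of the counts on Rps3a1, Rps3a2 and Rps3a3 together, Rps3a3 took 42.6% to 43.5% in A1005 and 0.350% to 0.508% in the other lines. The 95% Wilson intervals of these shares were 41.8% to 44.4% and 0.277% to 0.642% at their outer bounds.

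Rps3a2, a second processed pseudogene (chromosome 14, 88123017 to 88123808, minus strand), held 627 to 789 counts in A1005 and 56 to 118 elsewhere. With both copies added, the A1005 libraries came to 817 to 952 CPM in place of 417 to 489, beside 851 to 1233 in A1129 and 1536 to 1772 in A1471. The intervals of the 4 A1005 shares of Rps3a3 overlapped, and neither the origin of these reads nor how the counting split them was tested.

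**Figure D5:**
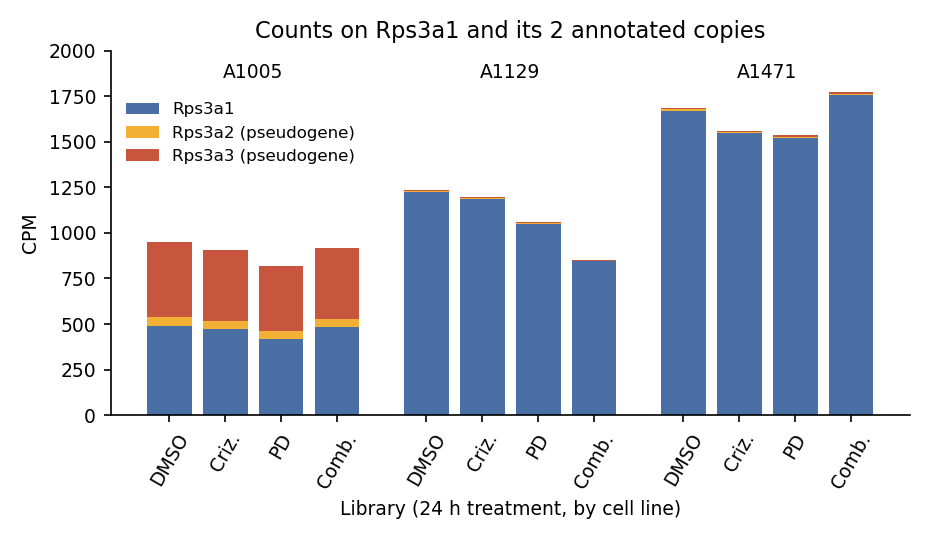
Stacked bars of CPM on Rps3a1 and on its annotated processed pseudogenes Rps3a2 and Rps3a3 in each library, by cell line and 24 h treatment (Criz., Crizotinib; PD, PD173074; Comb., combination). Rps3a3 takes 42.6% to 43.5% of the summed counts in A1005 and at most 0.508% in A1129 and A1471.

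Of the genes for ribosomal proteins whose symbols fall outside the pattern, Rpl36al was lower after the combination with the block. It went from a mean of 71.5 ± 4.78 to 47.3 ± 10.3 CPM (SD, n = 3), with a blocked log2 fold change of -0.61 (edgeR adjusted p = 0.00261, and 0.0593 without pairing). Fau and Rack1 did not pass, and Rack1 was at 1619 ± 186 and 1439 ± 375 CPM.

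Among 17 other genes whose messages carry a TOP motif, 2 passed without pairing (14.4% of all genes) and 10 with the block (54.8% of all genes), 8 lower and 2 higher. The median log2 fold change was -0.26. Nap1l1, a histone chaperone, fell from 505 ± 35.2 to 271 ± 6.80 CPM (-0.90, edgeR adjusted p = 0.00154), and Eef1d, of the elongation factor 1 complex, from 297 ± 20.7 to 179 ± 46.9 CPM (-0.73, adjusted p = 0.0328). Npm1, which acts in ribosome assembly, was lower with the block only (-0.78, adjusted p = 0.000298), and Tpt1 (0.51, adjusted p = 0.0108) and Eif3f (0.34, adjusted p = 0.0178) were higher with the block only. Eef1a1 and Eef2, which carry out elongation, had log2 fold changes of 0.14 and 0.26 and did not pass in either fit.

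Of 7 genes listed as chaperones or assembly factors of ribosomal proteins, 2 passed without pairing (14.4% of all genes). These were Grwd1, the chaperone of Rpl3 (70.4 ± 11.6 to 30.2 ± 9.74 CPM, -1.22, edgeR adjusted p = 0.00981), and Ltv1 (-0.72, adjusted p = 0.0209). With the block 6 of the 7 passed, all lower (26.2% of all genes were called lower). The median was -0.72, against -0.15 for the members. In A1129 Grwd1 differed by -2.05 on the log2 scale, in A1005 by -0.66 and in A1471 by -1.06. Pdcd2, the chaperone of Rps2, was the one that did not pass (-0.27, edgeR adjusted p = 0.351, and 0.0824 with the block).

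Of 14 regulators of TOP translation and its upstream pathway, 4 passed without pairing (14.4% of all genes) and 12 with the block (54.8%), 5 higher and 7 lower. Mtor rose from 55.5 ± 6.48 to 116 ± 22 CPM (1.07, edgeR adjusted p = 0.00234) and Tsc1, an inhibitor of mTOR signalling, rose by 0.65 (adjusted p = 0.0407). Eif4ebp1, which holds back the cap-binding protein eIF4E, and Eif4e fell by 1.10 and 1.01 on the log2 scale (adjusted p = 0.00479 and 0.00311). Larp1, which binds TOP messages, and Myc were lower with the block only (-0.80 and -0.90, edgeR adjusted p = 9.26e-05 and 0.00243). Myc differed by -0.89, -1.51 and -0.39 in A1005, A1129 and A1471, and Larp1 by -0.66, -0.97 and -0.79.

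Of 4 factors known to bind idle ribosomes or to regulate elongation, Serbp1 was lower (994 ± 147 to 533 ± 75.4 CPM, -0.90, edgeR adjusted p = 0.00701). Habp4, its relative, and Eef2k, the kinase of elongation factor 2, were higher with the block only (0.91 and 1.0, adjusted p = 0.000336 and 0.000199). No gene of these 5 lists passed for either inhibitor alone without pairing. With the block 2 of the regulators passed for PD173074, 1 higher and 1 lower (2.14% of all genes).

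Finally, 30 of the members hold 58 annotated snoRNA genes within their span. Their median log2 fold change under the combination was -0.15, and that of the 50 without one was -0.16. Exons of 38 members overlap an exon of another annotated gene, 27 on the same strand and 19 on the opposite strand. Whether the counting used the strand is not given in the sources used here, so reads of such pairs cannot be told apart. Of the 11 members called with the block, Rpl7l1, Rpl8, Rpl14 and Rpl27 had no such overlap.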

How the data were processed

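Tumourspheres of 3 mouse tumour lines were treated for 24 h, and 12 total RNA libraries were sequenced (NextSeq500, per the labels). The authors deposited raw counts per gene. The submitters' processing notes name bcl2fastq, STAR and HTSeq and the build mm10, and versions and strand setting are not given in the sources used here. Groups came from the treatment label. The 12 columns were matched to samples by their descriptions, no column was left out, and no 2 libraries were identical.

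Counts were tested over all genes with edgeR 4.0.16 (quasi-likelihood, TMM scaling, filterByExpr with a minimum of 10 counts, Benjamini-Hochberg adjustment) in R 4.3.3, with 4 treatments and no pairing, as in the study's methods. The cell line as a block was the second fit. Same-numbered samples share a cell line, and the deviations of libraries of a line from their treatment means correlated at 0.766 or more in all 18 pairs. DESeq2 1.42.0 and limma 3.58.1 were alternatives. Fits were tested on simulated counts drawn without a difference between cell lines, so that test cannot compare the fits with and without the block. CPM are counts per 1000000 after TMM scaling, and per-line differences are of log2 CPM with a prior count of 2. SE is the log2 fold change divided by the square root of F. P-values of the fit without pairing rest on the spread between the 3 lines within treatments, pooled over the 4 treatments. With the block they rest on the spread left after mean differences between lines are taken out. Single values used exact two-sided permutation tests (scipy 1.17.1).

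Coordinates, biotypes and transcript lengths are from GENCODE M21 (GRCm38, the build of the files), using 1 transcript per gene. Of 55573 gene IDs, 55394 matched. No protein sequences were used. Genes were named by role (stalk, paralogs and partners, Rpl5, Rpl11, Rps6, Rpl13, Rpsa, Rps27a), as the 6 largest rises and falls for the combination, and as the 3 lowest blocked p per comparison. Results of some genes that these rules take are not reported here. Other members are named as examples chosen after their values were seen. Members and lists were chosen with earlier results of these data known.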

Additional observations from a re-analysis of the deposited data

Results flagged for a closer look

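The change of the ribosomal protein genes under the combination took opposite directions in 2 lines. Against DMSO the median difference of log2 CPM over the 80 members was -0.54 in A1129 and 0.11 in A1471. Against Crizotinib it was -0.50 in A1129 and 0.18 in A1471, and against PD173074 -0.31 and 0.22. The share of all counts on the members differed from DMSO by -1.55 percentage points in A1129 and by 0.764 in A1471. With 1 library per line and treatment there is no spread within a line, so the difference between lines was not tested. The 3 comparisons share the same combination libraries and are not separate evidence.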

How the results depend on the processing

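Without pairing, the 2 members called for the combination against DMSO became 1 with DESeq2 size factors, with total counts or with at least 10 counts in every library, and 0 without the low-count filter, with only the compared groups fitted, without any 1 line (0 to 0) or, chosen after seeing the data, with scaling to the members' total. With the block the count was 11, and it was 7 with DESeq2 size factors, 5 with total counts, 5 with at least 10 counts in every library, 7 with scaling to the members' total, and 5 to 13 without a line. The causes of these differences were not tested, beyond the smaller number of libraries or other number of genes that each construction gives. Rpl7l1, Rpl8 and Rpl7a were called in all 7 blocked alternatives and in all 3 fits without a line.

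Against Crizotinib and against PD173074 the unpaired count of 0 became 5 with the block for each, and against Crizotinib 2 with DESeq2. The blocked counts were 3 to 5 and 2 to 5 without a line. The median for Crizotinib against DMSO was -0.063 to -0.049 without a line, and that of the combination against DMSO was -0.30 to 0.02. The block changed no other count of called members. Each line was sequenced once with each treatment, and a difference between lines in the response to a treatment was not tested.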
